A study of Mus musculus with 6 samples.

Results

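The 38 genes described here are known markers of microglia and of brain macrophages, chosen by name from the 27884 genes of the deposited table. All 38 were found there and all 38 passed the filter on low counts. The samples were preoptic area tissue, a part of the hypothalamus, from female NuTRAP::Pnoc-Cre mice aged 17 to 18 weeks, with 3 animals pooled in each replicate. NuTRAP carries a Cre-dependent EGFP tag on a ribosomal protein, and Pnoc-Cre drives Cre from the prepronociceptin gene, so that only cells with Cre activity are meant to carry the tag. From each of 3 replicates, RNA bound to tagged ribosomes was pulled down with an antibody against GFP (IP) and total tissue RNA was sequenced beside it (input). All 6 libraries share genotype, sex, age and region, and no library from mice without Cre was used here. Total counts per library ran from 48204567 to 53056642. Pnoc itself had 47.7, 43.1 and 41.1 CPM (counts scaled by library size with edgeR's TMM factors) in the IP libraries and 7.51, 11.0 and 13.2 CPM in the inputs, a difference of 2.06 ± 0.22 on the log2 scale (SE, adjusted p = 0.000472 in edgeR's quasi-likelihood test), so that the targeted gene was higher in every library labelled IP.

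Microglia are the resident macrophages of the brain. They arise from the yolk sac, depend on signals through the receptor CSF1R, and survey the tissue with receptors for nucleotides, chemokines and lipids. Signals through TGF-beta and the transcription factors PU.1, IRF8 and SALL1 keep their identity, and border-associated macrophages of vessels and meninges share part of the same genes. Microglia are not neurons, and the labels name Pnoc neurons as the cells whose ribosomes were pulled down.

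All 38 genes had lower levels in every IP library than in any input library. Of the 38, 36 fell in IP at an adjusted p under 0.05 in edgeR's quasi-likelihood test and 0 rose. DESeq2 called 0 higher, and 0 were higher at an unadjusted p under 0.05. The median log2 fold change, IP over input, was -2.93, which leaves 13.1% of the input level, and the range ran from -5.05 to -1.02. By size, 34 of the 36 fell by at least 4-fold and 18 by at least 8-fold. The genes that did not pass were Slc2a5 and Mrc1. Over all 18640 genes that entered the test, 17.1% were called lower and 12.9% higher, 6.77% were lower by at least 4-fold and 3.01% by at least 8-fold, and 26% had all IP libraries below all inputs. The median over all tested genes was -0.07. Scaling by library totals alone moved that median by -0.11 and the shares of all genes called to 19.7% lower and 9.3% higher, while 36 of the 38 genes were again called lower. DESeq2 called 37 of the 38 lower, against 17.3% of the genes it tested, and the authors' deposited table also holds 37 as lower, against 13.5% of its genes. Without both libraries of replicate 3 the test called 24 of the 38, against 3.93% of all genes, and the median was -3.18. The 12 that lost the call were Ptprc, Cd53, Csf3r, Mertk, Runx1, Lyz2, Aif1, Itgam, Slco2b1, Irf8, Hpgds and Cd68. Without input replicate 3 alone the count was 30, against 10.5%, and in a test against a fold of 1.5 it was 32, against 8.88%. With the replicate as a block 36 genes were called lower, against 19.4%, and with a length and GC correction added 37 were, against 17.9%. IP and input of the same number come from the same pool of tissue, per the series' design text. The fold changes compare RNA pulled down with tagged ribosomes to total RNA of that tissue. They do not measure numbers of cells or RNA per cell.

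**Figure D1:**
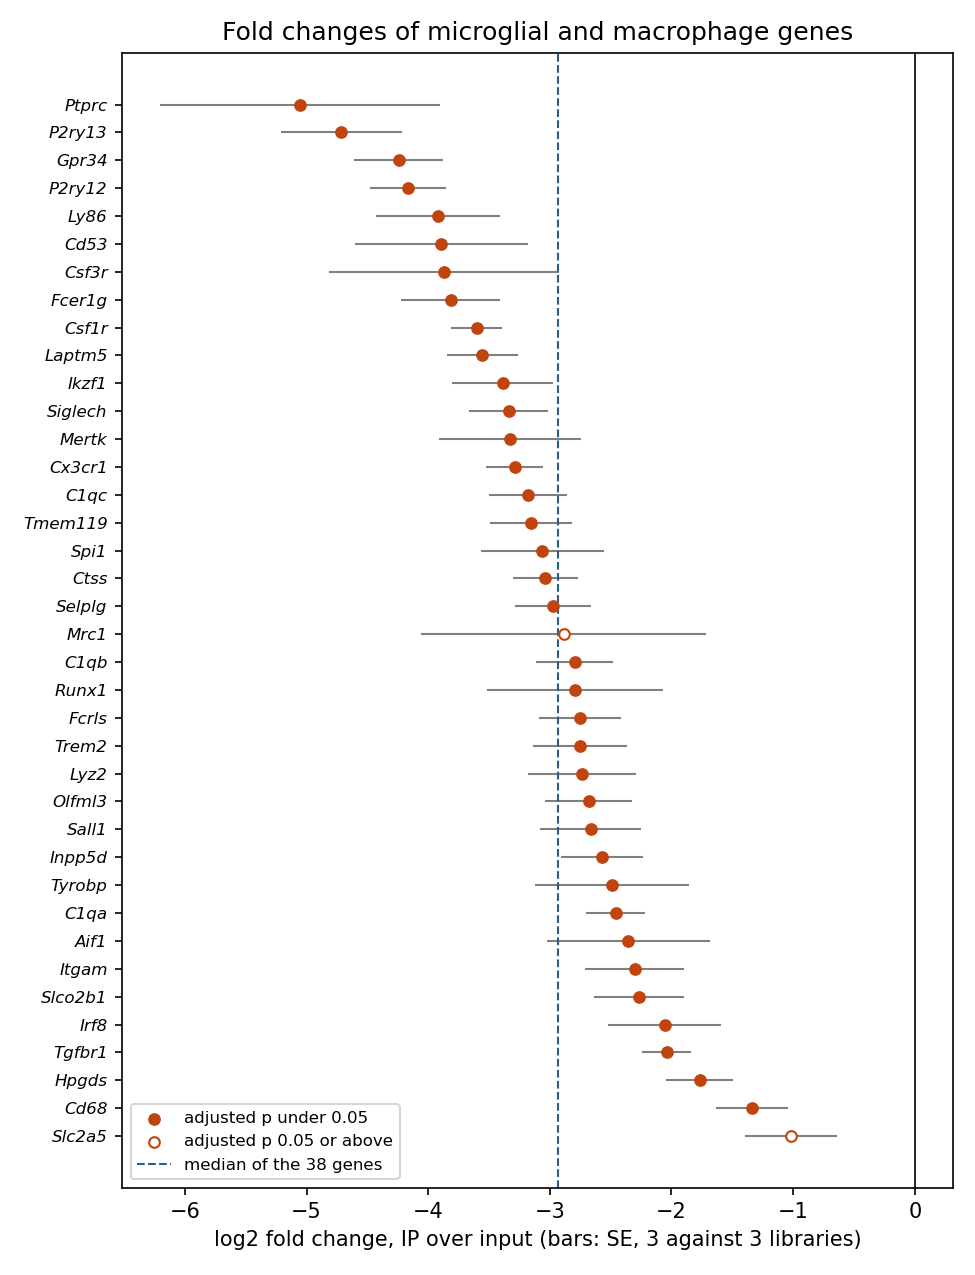
Log2 fold change of each of the 38 genes, IP over input, with its standard error from 3 IP and 3 input libraries. Filled points passed an adjusted p of 0.05 in edgeR, open points (Slc2a5 and Mrc1) did not, the dashed line is the median of -2.93, and all points lie below 0.

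The genes with the highest level per kilobase in the tissue were C1qb and C1qa, of complement C1q, and Ctss, of the protease cathepsin S. On the authors' deposited FPKM scale, which divides by gene length, C1qb had 21.8, 34.0 and 30.4 in inputs 1, 2 and 3, Ctss 19.2, 32.4 and 32.4, and C1qa 15.2, 24.9 and 22.4. Within each input library C1qa was the lowest of the 3 genes. C1qb stood above Ctss in inputs 1 and 2 and below it in input 3, so that the order of C1qb and Ctss was not set. Tyrobp, C1qc and P2ry12 came next, with means of 10.9, 10.5 and 9.21 FPKM. At the other end stood Ptprc (0.0802 FPKM), Mrc1 (0.116 FPKM) and Runx1 (0.162 FPKM). In IP, C1qb, C1qa and Ctss were again the highest, with mean FPKM of 4.21, 3.86 and 3.46.

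**Figure D2:**
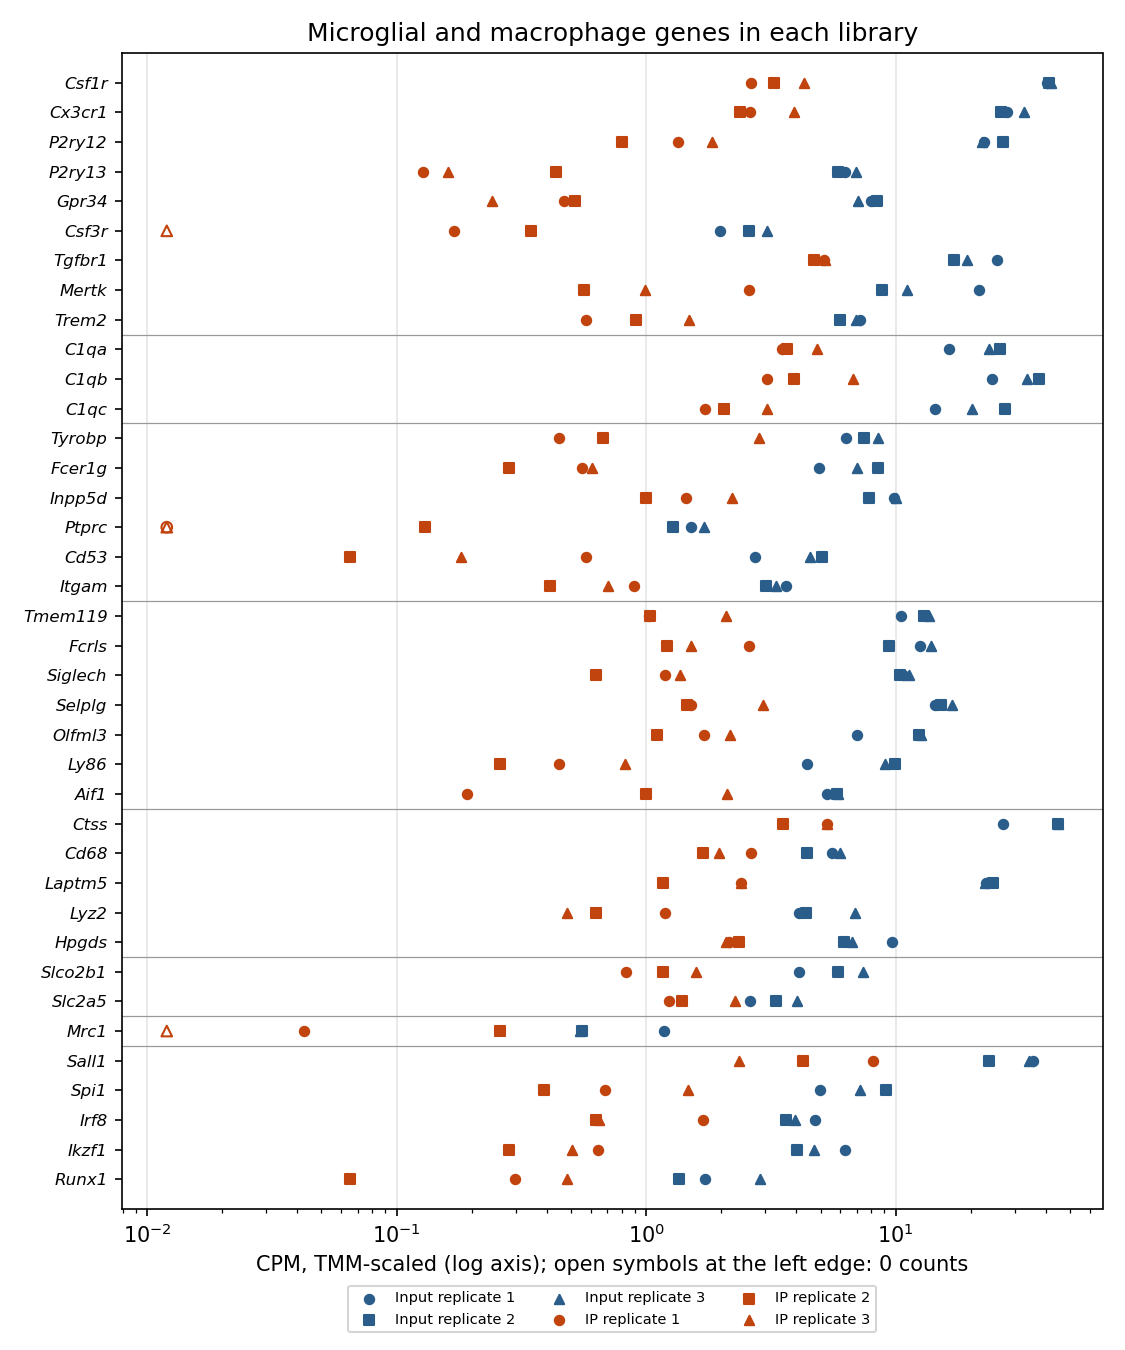
CPM of each gene in each library on a log axis, with genes grouped by role from receptors at the top to transcription factors at the bottom, input in blue and IP in orange. In every row the 3 IP values lie to the left of the 3 input values, and open symbols mark the libraries in which Csf3r, Ptprc or Mrc1 had 0 counts.

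PU.1, the product of Spi1, is the ETS-family factor on which macrophage genes depend, and it binds purine-rich sites with GGAA at their centre. The promoters of the members were searched for a purine-rich form of such a site, the letters GAGGAAG. Both strands were read in the 250 bases before the start. Whether a match goes with the fall in IP was not tested. RefSeq promoters (build GRCm38.p6, not the build of the expression table) were matched by symbol for 31 of the 38 genes, with 40 promoters. Of these 40, 12 promoters of 12 genes held the letters, or 30% of them, beside 3486 of 32851 promoters of all genes, or 10.6%. The 9 with a match in the last 100 bases before the start are shown because they hold the motif nearest to the start. Each line gives these 100 bases, 5′ to 3′ on the gene's own strand, with the match in capitals (read as CTTCCTC where it lies on the other strand).
Itgam: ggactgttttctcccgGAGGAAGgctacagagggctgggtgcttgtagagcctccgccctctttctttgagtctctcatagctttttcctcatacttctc
Inpp5d: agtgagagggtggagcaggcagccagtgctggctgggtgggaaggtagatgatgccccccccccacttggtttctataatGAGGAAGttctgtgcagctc
Csf3r: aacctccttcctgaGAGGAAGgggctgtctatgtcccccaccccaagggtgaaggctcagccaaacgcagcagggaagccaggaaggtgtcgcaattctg
Laptm5: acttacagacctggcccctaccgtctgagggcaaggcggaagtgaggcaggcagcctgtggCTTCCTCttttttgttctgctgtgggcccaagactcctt
Trem2: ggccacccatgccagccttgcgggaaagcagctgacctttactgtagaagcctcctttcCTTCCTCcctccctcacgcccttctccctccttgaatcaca
P2ry13: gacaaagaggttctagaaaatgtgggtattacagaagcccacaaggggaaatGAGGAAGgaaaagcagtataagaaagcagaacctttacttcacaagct
Hpgds: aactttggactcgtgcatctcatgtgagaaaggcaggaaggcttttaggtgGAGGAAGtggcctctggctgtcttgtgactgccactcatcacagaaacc
Mrc1: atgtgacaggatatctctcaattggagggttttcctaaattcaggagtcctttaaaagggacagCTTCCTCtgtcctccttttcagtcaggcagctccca
Tgfbr1: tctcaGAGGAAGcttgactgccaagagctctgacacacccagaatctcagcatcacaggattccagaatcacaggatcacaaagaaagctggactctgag
Their windows are chr7:128062540-128062639 (plus strand) for Itgam, chr1:87620212-87620311 (plus) for Inpp5d, chr4:126024559-126024658 (plus) for Csf3r, chr4:130913216-130913315 (plus) for Laptm5, chr17:48346301-48346400 (plus) for Trem2, chr3:59210883-59210982 (minus) for P2ry13, chr6:65144731-65144830 (minus) for Hpgds, chr2:14229314-14229413 (plus) for Mrc1 and chr4:47386116-47386215 (plus) for the second of the Tgfbr1 starts. The match began 20 bases before the start in Inpp5d and 95 bases before it in Tgfbr1. Mrc1 held a further match outside the window. A match describes these letters and does not show binding, and the 9 genes ranged in log2 fold change from -4.71 (P2ry13) to -1.77 (Hpgds).

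All 9 receptor genes fell, and the median of their log2 fold changes was -3.60. Csf1r, the receptor for CSF1 and IL-34 that microglia need to survive, had 2.64, 3.25 and 4.29 CPM in IP replicates 1, 2 and 3 and 40.6, 41.2 and 42.0 CPM in the matching inputs. The inputs were nearly alike and every IP library lay far below them, at -3.60 ± 0.21 (SE) on the log2 scale. The fractalkine receptor gene Cx3cr1 had 2.60, 2.39 and 3.91 CPM in IP and 27.9, 26.5 and 32.7 CPM in input, a 9.78-fold difference (adjusted p = 8.52e-05).

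The purinergic and lipid receptors, which let microglia sense nucleotides and lysophospholipids released by other cells, stood among the lowest. P2ry12, the ADP receptor that steers microglial processes, had 1.34, 0.802 and 1.83 CPM in IP against 22.7, 27.0 and 22.1 CPM in input and fell by 4.17 ± 0.31 (SE) on the log2 scale. Its neighbour P2ry13 (chr3:59115313-59118303 in mm39, beside P2ry12 at chr3:59123693-59170292, both on the minus strand) had 0.128, 0.434 and 0.161 CPM in IP against 6.28, 5.86 and 6.94 CPM in input, a 26.2-fold difference. Gpr34, the receptor for lysophosphatidylserine on the X chromosome, had 0.469, 0.520 and 0.242 CPM in IP against 7.98, 8.39 and 7.04 CPM in input, at -4.24 ± 0.36 (SE). For these 3 genes no more than 5.56% of the input level was left in IP.

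Receptors with wider use in the body fell to different degrees. Tgfbr1, a receptor subunit for TGF-beta that many cell types express, kept 24.3% of its input level, with 5.16, 4.73 and 5.20 CPM in IP and 25.4, 17.2 and 19.4 CPM in input. Its IP libraries lay close together, and it fell by 2.04 ± 0.20 (SE, adjusted p = 0.000357). Mertk, a receptor for phosphatidylserine-bridging ligands that serves the uptake of dead cells in microglia and astrocytes, had 2.58, 0.564 and 0.987 CPM in IP and 21.7, 8.78 and 11.1 CPM in input. Replicate 1 was the highest of its group on both sides, and the log2 fold change was -3.33 ± 0.59 (SE). With the replicate as a block the adjusted p of Mertk was 1.25e-05, against 0.00442 without it, and the gene was not called without both libraries of replicate 3 (adjusted p = 0.0834). Trem2, a lipid-sensing receptor of microglia, had 0.576, 0.911 and 1.49 CPM in IP and 7.19, 5.99 and 6.96 CPM in input, a 6.74-fold difference. Csf3r, the receptor for granulocyte colony-stimulating factor, had 8, 16 and 0 counts in IP and 102, 141 and 158 in input, at -3.87 ± 0.94 (SE, adjusted p = 0.0164). Its count of 0 in IP replicate 3 allows up to 0.0605 CPM (3 counts), and without input replicate 3 the gene did not pass (adjusted p = 0.0642).

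The C1q genes encode the chains that start the classical complement cascade and mark synapses and debris for removal. They lie next to each other on the minus strand of chromosome 4 in mm39, C1qb at chr4:136607440-136613498, C1qc at chr4:136617115-136620376 and C1qa at chr4:136623228-136626114. All 3 fell. C1qa had 3.50, 3.69 and 4.86 CPM in IP and 16.3, 26.3 and 23.6 CPM in input, C1qb 3.05, 3.92 and 6.75 and 24.4, 37.5 and 33.5 CPM, and C1qc 1.73, 2.06 and 3.04 and 14.3, 27.5 and 20.2 CPM. Among the inputs replicate 1 was the lowest for all 3 genes, and among the IP libraries replicate 3 was the highest for all 3. The log2 fold changes were -2.46 ± 0.24 for C1qa, -2.80 ± 0.32 for C1qb and -3.18 ± 0.32 for C1qc (SE), with adjusted p of 0.000357, 0.000658 and 0.000398.

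Genes of immune signalling adaptors and leukocyte surface proteins fell in 6 of 6 cases. Tyrobp encodes the ITAM adaptor that carries signals from TREM2 and related receptors. It had 0.448, 0.672 and 2.82 CPM in IP and 6.30, 7.46 and 8.47 CPM in input, so that IP replicate 3 stood well above the other IP libraries. The log2 fold change of Tyrobp was -2.49 ± 0.63 (SE, adjusted p = 0.0196), and it did not pass without IP replicate 2 or input replicate 3 (adjusted p = 0.0660 and 0.0678). Fcer1g, the other ITAM adaptor of the list, which serves Fc receptors, had 0.554, 0.282 and 0.605 CPM in IP and 4.93, 8.52 and 6.98 CPM in input. No IP library stood apart for Fcer1g, which fell by 3.82 ± 0.41 (SE).

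Inpp5d, whose product SHIP1 removes a phosphate from the lipid signal of PI3-kinase, fell 5.94-fold (adjusted p = 0.00128). Cd53, a leukocyte tetraspanin, had 0.576, 0.0651 and 0.181 CPM in IP and 2.72, 5.07 and 4.52 CPM in input, a 14.9-fold difference (adjusted p = 0.00515). Ptprc, which encodes the pan-leukocyte phosphatase CD45, had counts of 0, 6 and 0 in IP and 78, 70 and 88 in input. Its log2 fold change of -5.05 ± 1.15 (SE) was the lowest of the 38, rests on 6 counts in IP and was not called without input replicate 3 (adjusted p = 0.0530). Itgam, an integrin chain of the complement receptor CR3, fell 4.94-fold (adjusted p = 0.00457). On the same strand, exons of the annotated gene Gm49368 cover 67.4% of the exon bases of Itgam, so that its reads may be shared and its value is uncertain.

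Genes of surface, secreted and other marker proteins of microglia fell in 7 of 7 cases. Tmem119, a membrane protein typical of parenchymal microglia, had 48, 48 and 104 counts in IP and 542, 710 and 703 counts in input. Siglech, a sialic acid-binding lectin, had 1.19, 0.629 and 1.37 CPM in IP and 10.7, 10.4 and 11.3 CPM in input. The inputs of Siglech lay close together. For Tmem119 input replicate 1 was the lowest, at -0.35 on the log2 scale against the geometric mean of inputs 2 and 3. The log2 fold changes were -3.15 ± 0.34 for Tmem119 and -3.34 ± 0.33 for Siglech (SE). Fcrls, an Fc receptor-like scavenger receptor, fell 6.74-fold, Selplg, the ligand of P-selectin, 7.85-fold, and Olfml3, a secreted olfactomedin-like protein, 6.42-fold. Ly86, the partner of the receptor CD180, had 0.448, 0.260 and 0.826 CPM in IP and 4.42, 9.90 and 9.09 CPM in input and was lowest in input replicate 1, with a 15.1-fold difference between the groups. Aif1, which encodes the calcium-binding protein IBA1 used to stain microglia, had 0.192, 0.997 and 2.12 CPM in IP and 5.29, 5.82 and 5.86 CPM in input. The inputs of Aif1 were alike and its IP libraries differed by more than 10-fold, and it fell by 2.35 ± 0.67 (SE, adjusted p = 0.0305). Aif1 was not called without IP replicate 2, input replicate 2 or input replicate 3 (adjusted p = 0.0949, 0.0625 and 0.0878).

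Genes of lysosomal proteins and enzymes fell in 5 of 5 cases but over a wide range. Ctss, the cysteine protease cathepsin S, had 5.29, 3.53 and 5.30 CPM in IP and 26.9, 44.7 and 44.5 CPM in input, an 8.21-fold difference (adjusted p = 0.000206). Laptm5, a lysosomal membrane protein of blood cells, had 2.41, 1.17 and 2.40 CPM in IP and 23.0, 24.6 and 22.8 CPM in input, at -3.55 ± 0.29 (SE). Lyz2, lysozyme, fell 6.66-fold, though reads can be shared with its near-identical copy Lyz1. By contrast Cd68, a glycoprotein of late endosomes, had 2.64, 1.69 and 1.95 CPM in IP and 5.54, 4.41 and 5.97 CPM in input. With 39.5% of the input level left, its log2 fold change of -1.34 ± 0.30 (SE, adjusted p = 0.0116) was the smallest among the genes that passed, and it was not called without input replicate 3 (adjusted p = 0.0564). Hpgds, the haematopoietic prostaglandin D synthase, had 2.15, 2.36 and 2.10 CPM in IP, nearly alike in the 3 libraries, and 9.68, 6.21 and 6.67 CPM in input, at -1.77 ± 0.27 (SE, adjusted p = 0.00255).

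The members that did not pass were a sugar transporter and a macrophage lectin. Slc2a5, the fructose transporter GLUT5, had 1.24, 1.39 and 2.28 CPM in IP and 2.61, 3.31 and 4.02 CPM in input. Its groups did not overlap and its log2 fold change was -1.02 ± 0.37 (SE, adjusted p = 0.0730), the nearest to 0 of the 38. Mrc1, the mannose receptor CD206 of border-associated macrophages, had 2, 12 and 0 counts in IP and 61, 30 and 28 in input, at -2.89 ± 1.17 (SE, adjusted p = 0.0978). DESeq2 called Mrc1 lower (adjusted p = 0.0457), and so did edgeR's test without IP replicate 2 (adjusted p = 0.0455, log2 fold change -5.01). Slco2b1, an organic anion transporter of microglia and vessels, fell by 2.27 ± 0.37 (SE, adjusted p = 0.00324), with 0.832, 1.17 and 1.59 CPM in IP and 4.11, 5.86 and 7.38 CPM in input.

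All 5 transcription factor genes fell. Spi1, the gene of PU.1, had 0.682, 0.390 and 1.47 CPM in IP and 4.96, 9.18 and 7.19 CPM in input, at -3.06 ± 0.51 (SE, adjusted p = 0.00344). Ikzf1, the lymphoid zinc finger factor Ikaros, had 0.640, 0.282 and 0.504 CPM in IP and 6.24, 4.04 and 4.72 CPM in input, a 10.5-fold difference. Both groups kept well apart for these genes. Sall1, a zinc finger factor that in adult brain marks microglia among myeloid cells, had 8.15, 4.25 and 2.36 CPM in IP and 35.7, 23.6 and 34.2 CPM in input. IP replicate 1 was the highest for Sall1, whereas IP replicate 3 was the highest for 22 of the 38 genes, and the log2 fold change was -2.66 ± 0.42 (SE). Irf8, an interferon regulatory factor and partner of PU.1, had 1.68, 0.629 and 0.645 CPM in IP and 4.73, 3.64 and 3.96 CPM in input, again with IP replicate 1 on top, at -2.06 ± 0.46 (SE, adjusted p = 0.0119). It was not called without both libraries of replicate 2 or of replicate 3 (adjusted p = 0.0709 and 0.125). Runx1, which acts in blood cell and early microglial development, had 14, 3 and 24 counts in IP and 89, 74 and 148 in input. It fell by 2.79 ± 0.72 (SE, adjusted p = 0.0208) and was not called without IP replicate 1 or input replicate 3 (adjusted p = 0.0536 and 0.0915).

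Genes were also compared with the mean of a core of 8 members (Csf1r, Cx3cr1, P2ry12, Tmem119, C1qa, C1qb, C1qc and Ctss), whose mean log2 fold change was -3.21. The core was not uniform, with log2 fold changes from -4.17 (P2ry12) to -2.46 (C1qa). The standard errors on the core scale do not include this spread between core genes. The libraries were scaled so that the mean log2 count of the core was alike in all 6, and the other 30 members were tested on that scale. Of these 30, 6 fell less than the core, 1 fell more and 23 were not told apart from it. On this scale 88.5% of all tested genes were less low in IP than the core and 0.655% lower than it, so that the adjusted p is close to the unadjusted p. Slc2a5 stood 2.19 ± 0.46 (SE, adjusted p = 0.000249), Cd68 1.92 ± 0.45 (SE, adjusted p = 0.000586), Hpgds 1.46 ± 0.43 (SE, adjusted p = 0.00397) and Tgfbr1 1.18 ± 0.37 (SE, adjusted p = 0.00578) above the core on the log2 scale. These 4 kept the call in each of the 9 other settings tried on this scale. The settings were the replicate block, the filter of 1 CPM, a core without the C1q genes, and each single library left out. DESeq2 and leaving out both libraries of a replicate were not among them. Irf8 (1.23 ± 0.54, SE, adjusted p = 0.0406) and Slco2b1 (0.96 ± 0.42, SE, adjusted p = 0.0382) also passed. Without IP replicate 1 Irf8 stood at 0.44 (adjusted p = 0.456), and it was not called without input replicate 2 or 3 either (adjusted p = 0.0940 and 0.0948). Slco2b1 was not called without IP replicate 2 or any 1 input replicate (adjusted p between 0.0798 and 0.128). P2ry13 lay 1.43 below the core (-1.43 ± 0.54, SE, adjusted p = 0.0198), and was not called without IP replicate 1 or IP replicate 3 (adjusted p = 0.0636 and 0.110). With the replicate as a block 3 genes fell more than the core, P2ry13, Gpr34 (-1.04, adjusted p = 0.0256) and Ptprc (-2.41, adjusted p = 0.0377). The genes that fell more changed with the IP library left out. Without IP replicate 1 they were Mertk (-1.16, adjusted p = 0.0354) and Cd53 (-1.96, adjusted p = 0.00731). Without IP replicate 2 they were P2ry13, Gpr34 and Ptprc, the last then with 0 counts in IP. Without IP replicate 3 none of the 30 was called lower than the core.

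**Figure D3:**
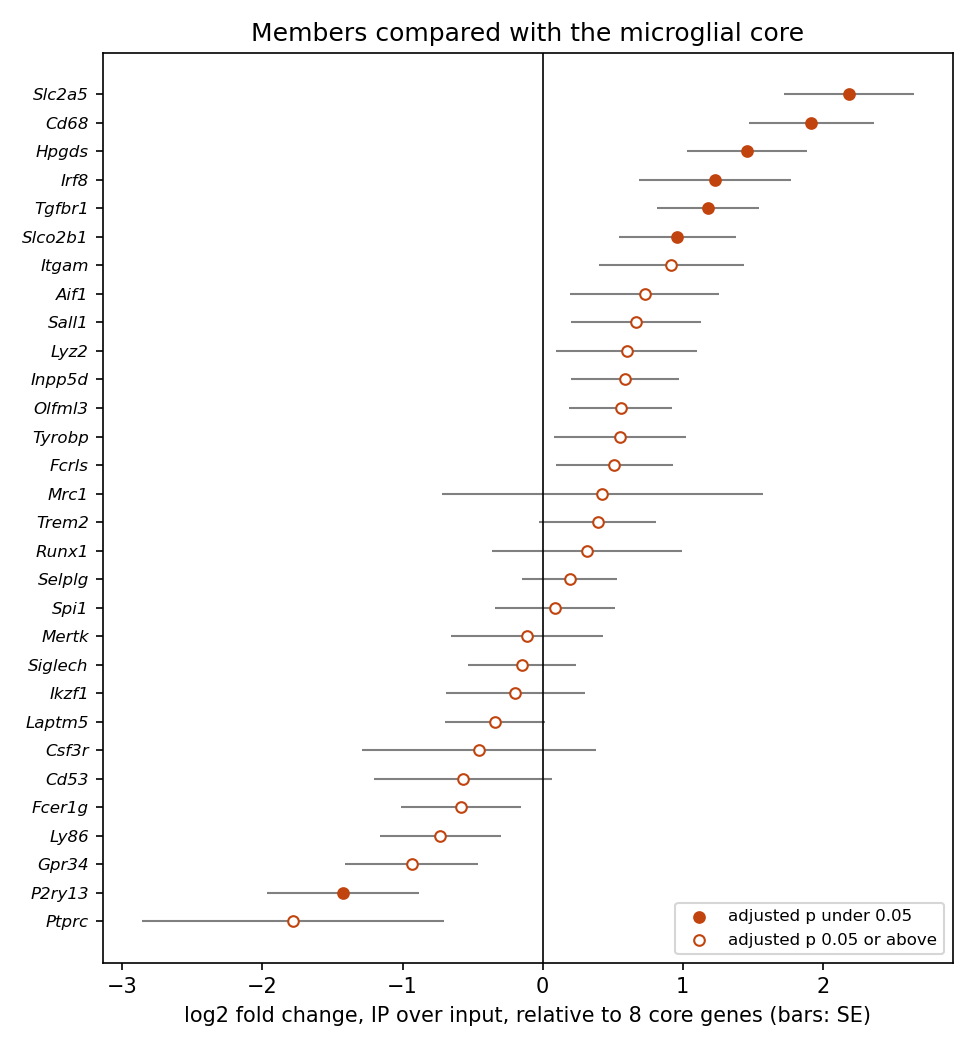
Log2 fold change of the 30 members outside the core, IP over input, after scaling each library to the 8 core genes, with its standard error; 0 means a fall equal to that of the core. Filled points passed an adjusted p of 0.05: 6 genes lie above 0 with Slc2a5 at 2.19 on top, and P2ry13 lies below it at -1.43.

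Summed over the 38 genes, the IP libraries held 63.8, 50.7 and 73.9 CPM and the inputs 441, 480 and 499 CPM. The mean level in IP was thus 13.3% of that in input, a 7.54-fold difference, and by replicate it was 14.5%, 10.6% and 14.8%. Without the C1q genes and Ctss the share was 13.1%, nearly the same as with them. Measured in the same way, markers of oligodendrocytes, the myelinating cells, were at 13.2%, 10.8% and 16.1% of input. In each of the 3 replicates the shares of the 38 genes and of the oligodendrocyte markers lay within 2 percentage points of each other. Both, like the astrocyte share, were lowest in replicate 2. Sums weigh abundant genes most, and the median log2 fold changes were -2.93 for the 38 genes and -3.21 for the 10 oligodendrocyte markers. A list of 33 further microglial genes, described below, kept 40.1%, 23.0% and 29.4%. Astrocyte markers kept 26.8%, 24.0% and 25.8%, and endothelial markers 18.0%, 34.1% and 24.7%. The summed CPM of 10 pan-neuronal genes stood above input in all 3 replicates, between 132% and 147%. Of these 10 genes 5 rose and 0 fell in edgeR, with Map2 at -0.56 ± 0.23 and Rbfox3 at -0.06 ± 0.21 (SE), while Map2 was called lower with the replicate as a block (adjusted p = 0.0123) and 0 of the 10 passed without both libraries of replicate 3. The differences between these lists were not tested.

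**Figure D4:**
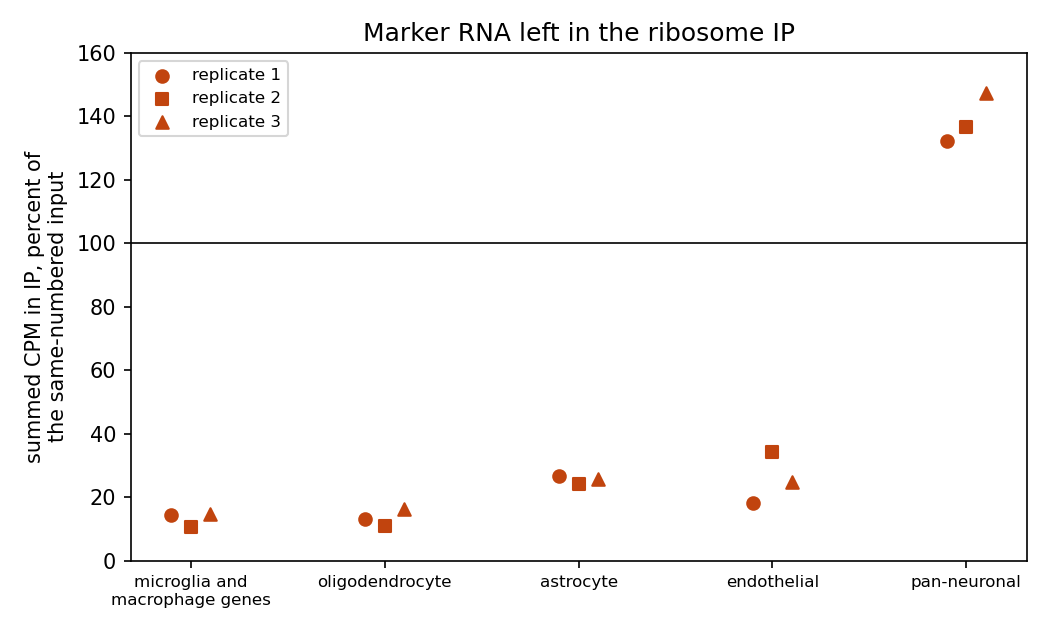
Summed CPM of marker lists in each IP library as a percentage of the same-numbered input, with 1 symbol for each of the 3 replicates and a line at equal level. The 38 microglial and macrophage genes lie between 10.6% and 14.8%, beside the oligodendrocyte markers, and the sum of the 10 neuronal genes lies above the line.

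The input libraries did not differ in 1 direction for all members. Input replicate 1 was the lowest of the 3 for 18 genes, the highest for 9 and in between for 11. On the log2 scale, against the geometric mean of inputs 2 and 3, it lay between -1.10 and -0.54 for Ly86, Olfml3, Cd53, Ctss, Spi1, Slco2b1, Fcer1g and the 3 C1q genes. Mertk and Mrc1 were higher there by 1.13 and 1.11, while P2ry12 stood at -0.11 and Csf1r at -0.04. Its direction differed with gene length. Of the 19 members shorter than the median of 3620.5 bases 13 were lowest in input replicate 1, and of the 19 longer members 5 were. Median differences were -0.42 for the shorter and 0.15 for the longer members. Across the 38 genes, which share the same 3 libraries and are not independent, Pearson's r with log2 length was 0.45 and Spearman's rho 0.50. Over 15176 genes with a mean input of at least 1 CPM, r was 0.28. The log2 fold change between IP and input showed little relation to length among the members (r of -0.06, rho of 0.09), with a median of -3.06 for the shorter and -2.79 for the longer ones.

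**Figure D5:**
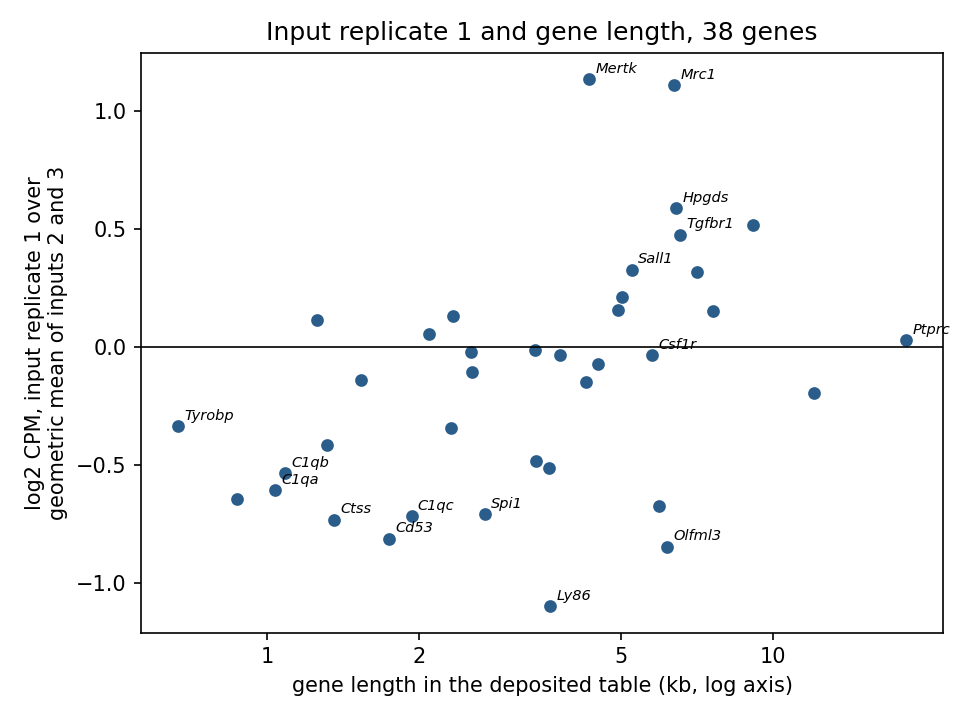
Log2 ratio of CPM in input replicate 1 to the geometric mean of inputs 2 and 3 against gene length on a log axis, 1 point for each of the 38 genes, with some named. Short genes such as C1qa, C1qb and Ctss lie below 0, and Mertk, Mrc1, Hpgds and Tgfbr1, all over 4 kb, lie above it, while Olfml3 and Slco2b1, also over 4 kb, lie below it at -0.85 and -0.68.

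Among the IP libraries, replicate 3 was the highest for 22 members, replicate 1 for 10 and replicate 2 for 6. Tyrobp and Aif1 stood out in this respect, at 2.34 and 2.24 above the geometric mean of IP replicates 1 and 2 on the log2 scale. C1qb and Tmem119 followed the same order at 0.96 and 1.01, whereas Sall1 was lower in IP replicate 3 by that measure (-1.32). Oligodendrocyte markers were also highest in IP replicate 3, with sums of 697, 726 and 1025 CPM, and so were endothelial markers, with 6.23, 6.70 and 7.05 CPM. Astrocyte markers went the other way, with 1044, 879 and 863 CPM, and were lowest in IP replicate 3. A relation of these lists to the microglial values was not tested.

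Of 9 tested genes that encode ligands of microglial receptors, many of them made by neurons or other non-microglial cells, 3 fell. Over all tested genes 17.1% were called lower, and the count was not tested against that share. Of 4 growth and survival factors tested, 2 fell and 0 rose in edgeR (0 were higher in DESeq2 and 0 at an unadjusted p under 0.05). Csf1 had 7.78, 8.04 and 9.41 CPM in IP and 19.0, 17.4 and 16.9 CPM in input, at -1.08 ± 0.17 (SE, adjusted p = 0.00269). Il34, the neuronal ligand of CSF1R, had 25.3, 25.1 and 24.0 CPM in IP and 33.8, 15.9 and 19.3 CPM in input, at 0.11 ± 0.26 (SE, adjusted p = 0.788). The IP and input values of Il34 overlapped, and without input replicate 1, the highest of them, it was called higher (adjusted p = 0.0465). Tgfb1 stood at -0.49 ± 0.42 (SE, adjusted p = 0.418) and Tgfb2 at -0.68 ± 0.22 (SE, adjusted p = 0.0446). Tgfb2 did not pass with the replicate block (adjusted p = 0.0501), nor in 5 of the 6 fits that left out a single library, all but that without input replicate 1.

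Of 5 other ligands tested, 1 fell and 0 rose in edgeR, beside 17.1% lower and 12.9% higher over all tested genes. DESeq2 called 1 of the 5 higher, Gas6, which was also the 1 gene higher with an unadjusted p under 0.05. Cx3cl1, the fractalkine bound by CX3CR1, had 346, 398 and 294 CPM in IP and 419, 233 and 233 CPM in input, at 0.23 ± 0.24 (SE, adjusted p = 0.513), and was called higher without input replicate 1 (adjusted p = 0.0227). Cd200 and Cd47, which restrain microglia and macrophages through their own receptors, stood at 0.32 ± 0.14 and 0.11 ± 0.16 (SE, adjusted p = 0.122 and 0.638). Cd200 was called higher with the length and GC correction and the replicate block together (adjusted p = 0.0313). The bridging ligands of MERTK lay on opposite sides of 0, with Gas6 at 0.65 ± 0.21 (SE, adjusted p = 0.0516) and Pros1 at -1.34 ± 0.27 (SE, adjusted p = 0.00737). Gas6 passed with the replicate as a block (adjusted p = 0.00634) and without input replicate 2 (adjusted p = 0.0355). Ccl2 was too low to be tested. Neither Csf1 nor Pros1 was called without both libraries of replicate 3 (adjusted p = 0.0541 and 0.105).

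Further genes often counted as microglial moved in the same direction for the most part. Of 33 tested 24 fell and 1 rose, with a median log2 fold change of -2.75, and 9 fell without both libraries of replicate 3. The smallest adjusted p among those that fell belonged to Itgb5, an integrin chain (-2.75 ± 0.16, SE, adjusted p = 3.09e-05), and Rnase4, a secreted ribonuclease (-3.03 ± 0.23, SE, adjusted p = 0.000109). Rgs10, a regulator of G protein signalling that neurons also express, was the 1 gene that rose, with 139, 104 and 133 CPM in IP and 40.9, 68.8 and 68.7 CPM in input (adjusted p = 0.00831). Its log2 fold change was 1.08 ± 0.22 (SE), and it was not called without both libraries of replicate 3 (adjusted p = 0.0953). Of 6 genes of late complement and complement receptors tested, 4 fell and 0 rose in edgeR (0 were higher in DESeq2 and 0 at an unadjusted p under 0.05), among them C4b at -3.62 ± 0.53, C3ar1 at -2.81 ± 0.68 and Serping1 at -1.50 ± 0.48 (SE). Of these, C3ar1 was not called without IP replicate 1 or IP replicate 3 (adjusted p = 0.0510 and 0.0575), and Serping1 (adjusted p = 0.0469) without any 1 library other than IP replicate 1. Without both libraries of replicate 3, C4b was not called either (adjusted p = 0.0651), and 1 of the 6 fell. C3, the central complement protein, had 2.24, 2.23 and 2.10 CPM in IP and 1.20, 1.34 and 2.57 CPM in input and did not pass (adjusted p = 0.543), nor did C1s1 (adjusted p = 0.441). C5ar1 and C1ra were too low to be tested.

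Many markers of other myeloid and lymphoid cells were below the filter on low counts. Of 12 border-associated macrophage markers, Mrc1 among them, 7 were tested and 5 fell. The smallest adjusted p were those of Dab2, an endocytic adaptor that other cells also use (-2.42 ± 0.32, SE, adjusted p = 0.00141), and Cbr2, a carbonyl reductase (adjusted p = 0.00483). Cbr2 had 0 counts in all IP libraries and 40, 30 and 60 in input, at least 13.1-fold lower against the floor of 3 counts in each IP library, and was not called without both libraries of replicate 3 (adjusted p = 0.0720), when 2 of the 7 fell. With the replicate as a block 6 of the 7 fell. Of 5 class II antigen presentation genes 3 were tested and 0 passed in edgeR (DESeq2 also called 0, and 0 had an unadjusted p under 0.05), with Cd74 at -1.44 ± 0.63, H2-Eb1 at -0.65 ± 0.70 and Ciita at 0.13 ± 0.58 (SE). H2-Aa and H2-Ab1 were below the filter. Cd74 was called lower without IP replicate 1 (adjusted p = 0.0281) and with the length and GC correction and the block together (adjusted p = 0.0337). Among 12 genes of activated microglia 5 were tested and 2 fell, Axl at -3.11 ± 0.25 and Cd9 at -2.76 ± 0.26 (SE), both also known from other glia. With the replicate as a block 3 of these 5 fell and 1 rose. The further ones were Lpl, a lipoprotein lipase, at -0.69 ± 0.38 without the block and an adjusted p of 0.212 (0.0249 with it), and Spp1, the secreted protein osteopontin, at 0.74 ± 0.49 without the block and an adjusted p of 0.296 (0.0235 with it, on the higher side). Of 11 lymphocyte markers Cd4 and Cd79a were tested. Cd4 fell by 2.03 ± 0.66 (SE, adjusted p = 0.0480), with 22.0, 5.33 and 9.51 CPM in the inputs, and stayed called in 2 of the 6 fits that left out a single library, those without IP replicate 1 and without input replicate 2. With the replicate as a block its adjusted p was 0.000260. Cd79a stood at 2.40 ± 1.17 (SE, adjusted p = 0.157). Of 8 neutrophil and monocyte markers Mpo and Plac8 were tested and 0 passed in edgeR (DESeq2 also called 0, and 0 had an unadjusted p under 0.05), with S100a8, S100a9, Ccr2 and Ly6c2 below the filter and Ly6g and Cxcr2 not analysed here. Mpo stood at -0.23 ± 0.88 and Plac8 at -1.36 ± 1.43 (SE).

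Exons of 21 of the 38 genes overlap exons of another annotated gene in GENCODE M39, which has the same build as the table. Apart from Itgam these overlaps are with genes on the opposite strand. Csf1r shares 19.8% of its exon bases with Hmgxb3, Aif1 16.6% with Gm17705 and P2ry12 9.17% with Med12l. Whether the counting used strand is not given in the sources used here, so that reads of such partners cannot be told apart.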

How the data were processed

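RNA of 3 immunoprecipitated (IP) and 3 input libraries was measured by poly(A) RNA-seq. Per the submitters' processing notes, HISAT2, featureCounts and DESeq2 were used on the mm39 genome. Versions and the strand setting are not given in the sources used here. The deposited table holds raw counts per gene, the authors' scaled signal (count divided by 1 factor per library), the authors' FPKM, their log2 fold change and their p-values, per the file headers. Of these, the counts were tested, FPKM served for levels between genes, and the signal was used only to check its constant ratio to the counts.

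The counts were tested with edgeR 4.0.16 in R 4.3.3 (TMM scaling, filterByExpr, quasi-likelihood test, group as the sole term, two-sided). Benjamini-Hochberg adjustment ran over all 18640 genes that passed the filter, with a threshold of 0.05. CPM use the TMM-scaled totals, and 3 counts equal 0.0551 to 0.0651 CPM, a floor that covers counting error only. Alternatives were DESeq2 1.42.0, other scalings and filters, a replicate block, each library or replicate left out, a test against a fold of 1.5, and a length and GC correction with the block. IP and input of 1 number come from the same pool of tissue and were processed in parallel, per the series' design text. Single values of some genes of the related lists are not reported here. Deviations from the group means correlated at 0.26, 0.14 and 0.10 within numbers and between -0.22 and 0.09 across them. The lowest value within numbers was thus close to the highest across them, and the pairing rests on the design text. The main test leaves the pairing out, and its standard errors and p-values are those of unpaired groups. Pairing entered only through the replicate block and the comparisons by replicate.

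The 38 genes, the related lists, the core of 8 genes and the motif were chosen with earlier results of these data known. All members are reported. In related lists of 8 or fewer genes every gene is named, and in longer lists the 2 with the smallest adjusted p among those called in each direction. Of 27884 gene IDs, 27576 were found in GENCODE M39, which gave exon overlaps.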

Additional observations from a re-analysis of the deposited data

How the results depend on the processing

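All 38 genes had a negative log2 fold change in each of the 18 alternatives that tested them (Mrc1 did not pass the filter of 1 CPM in all libraries of a group), and 23 of the 36 called genes kept the call in all of them. Leaving out single libraries or both libraries of a replicate gave between 24 and 36 called genes and medians between -3.26 (without IP replicate 3, which was the highest IP library for 22 genes) and -2.73 (without replicate 2). The lowest count with a single library left out was 30, without input replicate 3, when 10.5% of all genes were called lower. A test against a fold of 1.5 called 32. With the replicate block the count was 36 and the median -3.03, and the block changed no call of a member. With the length and GC correction and the block together, 37 were called, Slc2a5 included. Scaling by library totals alone gave a summed IP level of 12.3% of input, and leaving out a replicate gave 12.4% to 14.7%. The number of genes that fell less than the core ran from 4 to 9 over its alternatives, with 9 when the C1q genes were left out of the core. Depth limits Ptprc, Csf3r and Mrc1, which had 0 counts in at least 1 IP library.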

Other observations

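Among the further microglial genes, Lgmn and Plcg2, chosen here after their values were seen, had overlapping IP and input levels and were not called. Lgmn, the lysosomal protease legumain, had 78.3, 90.2 and 72.5 CPM in IP and 71.2, 91.6 and 95.0 CPM in input, at -0.10 ± 0.16 on the log2 scale (SE, adjusted p = 0.678 in edgeR). Plcg2, a phospholipase of immune receptor signalling, had 1.88, 5.62 and 6.61 CPM in IP and 4.42, 5.18 and 5.10 CPM in input, at -0.06 ± 0.43 (SE, adjusted p = 0.930 in edgeR). A p that misses the threshold does not show that these levels were alike, and in a bulk sample the cells that hold these transcripts are not known.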
